A study of Mus musculus with 6 samples.

Results

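NRF2, encoded by Nfe2l2, is the transcription factor that turns on antioxidant and detoxifying genes, and 10 genes of this system were read by their symbols among 25001 loci, 22601 of which carry a symbol. They were Nfe2l2 itself, its inhibitor Keap1, and 8 genes known as NRF2 targets, namely Gclc, Gclm, Gsr, Txnrd1, Srxn1, Hmox1, Nqo1 and Osgin1. Each symbol marked 1 locus except Txnrd1, which marked 2, and the locus with the higher mean was taken. All 10 were measured in all 6 libraries.

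RNA was sequenced from 427 cells, a mouse thymoma line, thymoma being a tumour of thymic epithelium, in 6 libraries with 1 library per condition. Cells stably carrying the empty pSUPER vector were kept without serum for 2 h and then given DMSO or 1 µM PMA, a phorbol ester that activates protein kinase C and induces ectodomain shedding, for 2 h. Cells with a knockdown of the intramembrane protease SPPL2b (SP2bKD) had the same 2 treatments. SP2bKD-10 cells, a single-cell clone, were transfected with GFP alone or with GFP plus the FLAG-tagged intracellular domain of epithin/PRSS14 (EICD), and GFP-positive cells were sorted the day after. All 4 SP2bKD libraries carry a label of SPPL2b siRNA, whereas the methods of the study describe a stable shRNA, and the labels of the untransfected pair name no clone, so whether the 4 share a construct or clone is not settled. In addition, the transfected pair was not matched to the others in serum, DMSO or sorting. Line and clone cannot be told apart from the knockdown in any comparison of SP2bKD with 427 libraries.

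Values are FPKM, read fragments normalised for transcript length and library size, so levels of different genes can be set side by side. Each library held an estimated 26000000 to 30500000 fragments. The labels were checked on the targeted gene, and Sppl2b was 9.90 FPKM in the 427 library and 13.4 FPKM in the library labelled SP2bKD with DMSO, with 6.86 and 9.37 FPKM in the PMA libraries, 11.4 FPKM with GFP and 13.2 FPKM with GFP plus EICD. Its RNA in these libraries goes against the label, so SP2bKD below names the label and not a loss measured in them. The study tested its SP2bKD clones for SPPL2b mRNA by real-time PCR, called them knocked down, and reported less EICD formation in them after PMA. St14, the gene of epithin/PRSS14, was at 615 FPKM in the EICD library and at 69.6 to 105 FPKM in the others, and fragments of the EICD construct can count towards it. Of 8 epithelial markers fixed for the thymoma, 7 were at 1 FPKM or more in every library, with Krt5 without a row, and their summed level was from 2498 to 4390 FPKM. None of 7 T cell and blood cell markers and none of 7 fibroblast markers reached 1 FPKM in all libraries, and their summed levels stayed at or under 0.448 and 2.17 FPKM. The line thus had the markers of epithelium and, at most, traces of the others.

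In unstressed cells KEAP1 holds NRF2 and hands it to a CUL3 ubiquitin ligase for destruction, and when cysteines of KEAP1 are modified by oxidants or electrophiles NRF2 accumulates in the nucleus. There it pairs with a small MAF protein and binds the antioxidant response element of its target genes, a site that overlaps in letters with the AP-1 site bound by FOS and JUN. NRF2 is controlled mainly at the level of its protein, so that the RNA of Nfe2l2 does not measure its activity, and epithelial cells keep many of its targets on at rest.

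The RefSeq promoter windows of GRCm38.p6, from 250 bases before to 50 bases after a start, held 9 windows for 7 of the 10 genes. Both strands were searched for TGACNNNGC, the core of the antioxidant response element, and for TGAGTCA, the AP-1 site. TGACNNNGC stood in 4 of the 9 windows (those of Nfe2l2, Gclm, Txnrd1 and Srxn1) and in 12.4% of all 32841 windows. TGAGTCA stood in 2 of the 9 (Srxn1 and Osgin1) and in 5.20% of all windows. The looser TGANNNNGC, which takes in TGACNNNGC and was added after these matches were seen, stood in 7 of the 9 and in 41.3% of all windows. The 250 bases before the start are given for 4 genes that the results turn on, Osgin1 for PMA, Nqo1 for the lines, Gclm for EICD, and Srxn1 as the window with the most matches. Capitals mark TGACNNNGC and TGAGTCA on either strand.
Osgin1 (chr8:119436897-119437146, plus strand): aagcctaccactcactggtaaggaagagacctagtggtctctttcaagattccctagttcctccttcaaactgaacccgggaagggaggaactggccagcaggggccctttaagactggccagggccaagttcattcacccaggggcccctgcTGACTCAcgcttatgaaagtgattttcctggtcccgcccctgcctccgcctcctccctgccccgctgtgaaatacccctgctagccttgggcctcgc
Srxn1 (chr2:152105274-152105523, plus strand): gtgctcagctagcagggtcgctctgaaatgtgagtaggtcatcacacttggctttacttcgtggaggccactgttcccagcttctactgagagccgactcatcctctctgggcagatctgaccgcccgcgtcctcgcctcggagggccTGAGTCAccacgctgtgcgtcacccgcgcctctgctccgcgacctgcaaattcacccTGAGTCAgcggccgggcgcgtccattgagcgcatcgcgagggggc
Gclm (chr3:122245307-122245556, plus strand): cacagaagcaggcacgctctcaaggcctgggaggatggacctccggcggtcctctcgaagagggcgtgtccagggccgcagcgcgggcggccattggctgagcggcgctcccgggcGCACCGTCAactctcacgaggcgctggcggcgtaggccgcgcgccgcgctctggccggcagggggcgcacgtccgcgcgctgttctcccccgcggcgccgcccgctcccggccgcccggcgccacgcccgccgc
Nqo1 (chr8:107403206-107403455, minus strand): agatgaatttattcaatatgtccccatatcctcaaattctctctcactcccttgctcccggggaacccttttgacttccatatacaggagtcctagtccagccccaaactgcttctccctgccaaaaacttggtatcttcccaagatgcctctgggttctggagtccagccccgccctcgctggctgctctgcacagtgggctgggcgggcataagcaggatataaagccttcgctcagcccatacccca
Osgin1 held TGAGTCA once and Srxn1 held it 2 times, with 1 TGACNNNGC further on in the Srxn1 window, from 29 to 37 bases after the start. The Gclm match is TGACGGTGC on the minus strand. The Nqo1 window held neither motif, and bases outside the windows were not searched. A match describes letters only. The start that RefSeq gives for Osgin1 lies inside the deposited locus and not at its edge.

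The reductases Gsr and Txnrd1 had the highest levels of the 10 genes and Nqo1 the lowest, in every library. The longest annotated transcripts had from 2 exons (Srxn1) to 16 (Gclc). Gsr, the reductase that regenerates glutathione (chromosome 8, 33652523 to 33698163 on GRCm38), had 122, 117, 114 and 101 FPKM in the 427 DMSO, 427 PMA, SP2bKD DMSO and SP2bKD PMA libraries, 92.3 FPKM with GFP alone and 72.7 FPKM with EICD. Txnrd1, the cytosolic thioredoxin reductase (chromosome 10, 82859063 to 82897724), came next in all 6, at 104, 109, 86.6, 99.1, 83.8 and 67.6 FPKM in the same order. In the SP2bKD PMA library this pair differed by little, at 101 and 99.1 FPKM. Next to them stood Gclm in all libraries but the one with EICD. The plot of FPKM by library shows this order, with Gsr and Txnrd1 at the top and Nqo1 apart at the bottom.

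**Figure D1:**
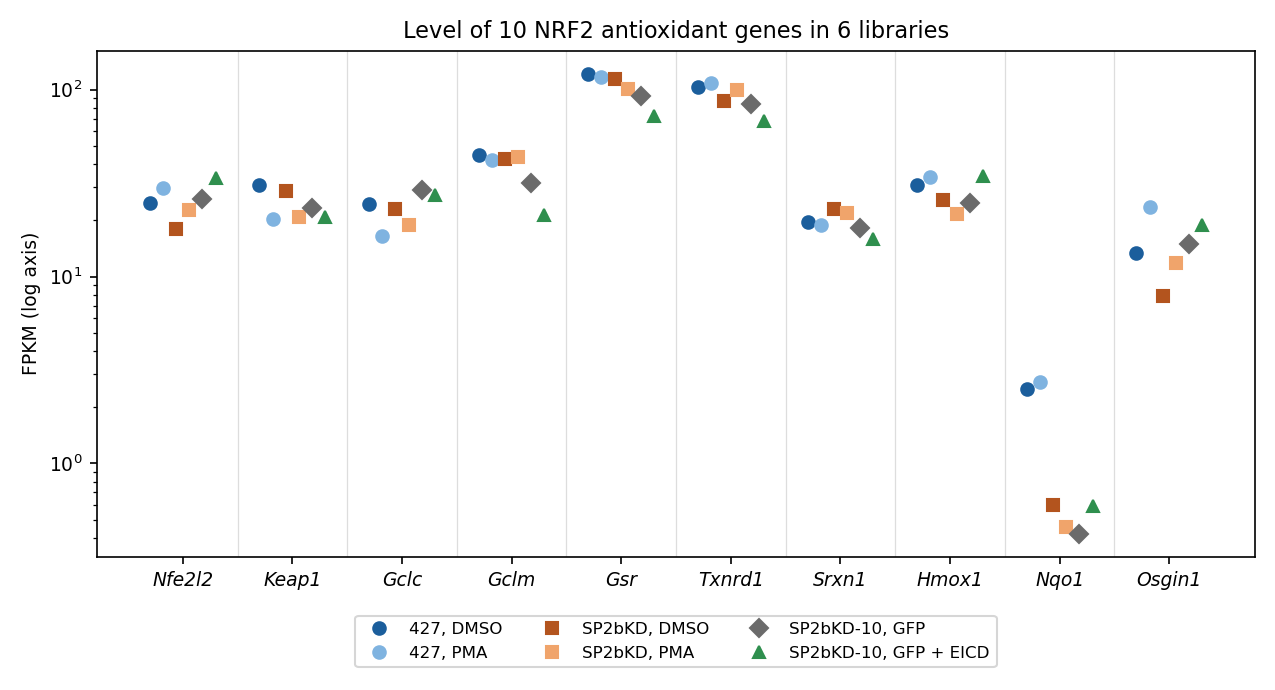
FPKM (log axis) of the 10 genes in each of the 6 libraries, 1 point per library, with circles for 427, squares for SP2bKD, the diamond for GFP and the triangle for GFP plus EICD. Nqo1 lies between 2.5 and 2.71 FPKM in the 427 libraries and between 0.421 and 0.598 FPKM in the 4 libraries labelled SP2bKD.

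For 7 of the 10 genes the highest library was less than 2-fold above the lowest. The ratio of highest to lowest FPKM was 1.44 for Srxn1, 1.51 for Keap1, 1.61 for Hmox1, 1.61 for Txnrd1, 1.67 for Gsr, 1.76 for Gclc and 1.89 for Nfe2l2. Beyond these were Gclm at 2.09, Osgin1 at 3.0 and Nqo1 at 6.45. Over the 11580 loci that reached 1 FPKM in any library the median of this ratio was 1.72. The spread of most of the genes was therefore like that of the typical locus.

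PMA left all of the genes within 2-fold in both lines, and the member furthest from its DMSO level was Osgin1. Log2 ratios were computed as FPKM plus 0.01 in 1 library over FPKM plus 0.01 in the other, and a locus was counted as tested when either library reached 1 FPKM. There is no p-value and no replicate check because each condition has 1 library. In 427 cells 0 of the 10 genes passed 2-fold, beside 9.44% of all loci tested, and 2 passed 1.5-fold, beside 23.6%. In SP2bKD libraries 0 of 9 passed 2-fold or 1.5-fold, beside 10.2% and 25.5% of loci. The median log2 ratio of the genes was 0.013 in 427 cells and -0.079 in SP2bKD cells, and over all loci it was -0.12 and -0.15. Nqo1 was under 1 FPKM in both SP2bKD libraries and is not among the 9.

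Osgin1 encodes an oxidative stress-induced growth inhibitor (chromosome 8, 119434124 to 119446256), and its promoter is the one shown with TGAGTCA once. It had 13.4 FPKM with DMSO and 23.7 FPKM with PMA in 427 cells, and 7.90 and 11.8 FPKM in SP2bKD cells. Both PMA libraries were thus above the DMSO library of the same line, although the SP2bKD PMA level stayed under the 427 DMSO level. The ratios were 1.77 and 1.49, or 0.82 and 0.57 on the log2 scale. The 95% interval for counting error alone, from estimated fragments and an exact binomial interval, was 0.70 to 0.94 in the 427 pair and 0.41 to 0.74 in the SP2bKD pair. Of all loci tested, 5.65% in 427 and 8.44% in SP2bKD had a ratio at least as high. Under every scaling tried the ratio was above 0 in both lines.

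The genes of the switch itself stood in opposite directions. Nfe2l2 (chromosome 2, 75675513 to 75704641) had 24.7 and 29.8 FPKM with DMSO and PMA in 427 cells, and 18.0 and 22.8 FPKM in SP2bKD cells. Keap1, the inhibitor (chromosome 9, 21229730 to 21242043), had 30.8 and 20.4 FPKM in 427 cells, and 28.7 and 21.0 FPKM in SP2bKD cells. The PMA library was the higher one for Nfe2l2 and the lower one for Keap1 in both lines. The log2 ratios were 0.27 and 0.35 for Nfe2l2, and -0.59 and -0.45 for Keap1, under a 2-fold difference throughout. A log2 ratio as low as that of Keap1 or lower was found in 14.7% of loci in 427 cells and 24.7% in SP2bKD cells. Nfe2l2 came to 0.020 in 427 cells when each library was scaled to the same FPKM sum, while Keap1 stayed lower in both lines under every scaling. Keap1 shares 510 exonic bases with the antisense gene Gm16754, and the strand of the fragments cannot be told from FPKM.

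Glutathione is made from cysteine by a ligase with a catalytic subunit, Gclc, and a modifier subunit, Gclm. The catalytic subunit (chromosome 9, 77754535 to 77794485) was at 24.4 FPKM with DMSO and 16.5 FPKM with PMA in 427 cells, and at 22.9 and 18.8 FPKM in SP2bKD cells. Its log2 ratios were -0.56 and -0.28, and the PMA library was the lower one in both lines under every scaling. For the modifier subunit the levels were 44.7 and 42.2 FPKM, and 42.4 and 43.4 FPKM, with log2 ratios of -0.08 and 0.03. The modifier was thus closer to its DMSO level than the catalytic subunit in both lines. Gclm shares exonic bases with the antisense gene Gm17494 (296 bases) and with the pseudogene Gm6061 (244 bases), and fragments there cannot be assigned from FPKM.

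The other targets were close to their DMSO levels. Srxn1, which encodes sulfiredoxin, the enzyme that repairs overoxidized peroxiredoxins (chromosome 2, 152105516 to 152111376), had 19.6 and 19.0 FPKM in 427 cells and 23.0 and 21.8 FPKM in SP2bKD cells. Its log2 ratios of -0.05 and -0.08 stand beside a promoter window with TGAGTCA 2 times. Gsr had log2 ratios of -0.06 and -0.17, and Txnrd1 had 0.07 and 0.19, and the 427 values of Srxn1, Gsr and Txnrd1 took the other sign under 1 of the scalings each. Hmox1, which encodes the inducible haem oxygenase (chromosome 8, 75088170 to 75100596), had 31.0 and 34.0 FPKM in 427 cells and 25.8 and 21.5 FPKM in SP2bKD cells, so its order turned between the lines, although in 427 cells it was -0.12 on the log2 scale when scaled to the same sum. The deposited Hmox1 locus starts ahead of the annotated gene, which begins at 75093621.

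Whether the PMA difference depended on the line was read from the PMA log2 ratio in SP2bKD libraries less that in 427 libraries. None of the 10 genes differed by 2-fold or by 1.5-fold in this, beside 4.6% and 10.7% of the loci tested. The values ran from -0.50 for Nqo1 to 0.28 for Gclc, with -0.40 for Hmox1 and -0.25 for Osgin1. The Nqo1 value rests on an estimated 22 and 24 fragments in the SP2bKD libraries.

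Between the lines the member that stood out was Nqo1, the quinone reductase that detoxifies quinones with NADPH (chromosome 8, 107388225 to 107403206). Nqo1 had 2.5 FPKM with DMSO and 2.71 FPKM with PMA in 427 cells. The libraries labelled SP2bKD gave 0.598 FPKM with DMSO, 0.457 with PMA, 0.421 with GFP and 0.593 with GFP plus EICD. Each of these 4 libraries, of different conditions, was under both 427 libraries. The share of all loci ordered this way was not computed. The log2 ratio of SP2bKD to 427 was -2.05 with DMSO, with a counting interval from -2.77 to -1.42, and -2.54 with PMA, with one from -3.27 to -1.89. These levels are low, an estimated 113 and 126 fragments in the 427 libraries against 24, 22, 17 and 24 in the others. A ratio as low or lower was found in 1.07% of loci with DMSO and 0.784% with PMA, and with 1 FPKM added to both libraries the log2 ratios were -1.13 and -1.35. Nqo1 was among the loci tested through its 427 level alone. The 7 fibroblast markers summed to 0.867 and 0.694 FPKM in 427 and to 2.04 and 2.17 FPKM in SP2bKD with DMSO and PMA, and to 0.439 and 0.667 FPKM with GFP and with EICD. Most of the SP2bKD sums was 1 gene, Pdgfrb, at 1.52 and 1.99 FPKM there and 0.445 and 0.488 FPKM in 427. Col1a1 and Col1a2 were also higher in SP2bKD with both treatments, while Col3a1 and Dcn were lower. Pdgfra was higher with DMSO and lower with PMA, and Lum was at 0 in every library. Apart from Pdgfrb, each of these markers was under 1 FPKM throughout. Of the epithelial markers, Krt8 had 80.1 and 136 FPKM in 427 and 311 and 403 FPKM in SP2bKD with DMSO and PMA. With GFP and with EICD it had 143 and 70.2 FPKM. Epcam, Cdh1 and Foxn1 were also higher in SP2bKD than in 427 with both treatments, and Krt14 and Trp63 were lower. Krt18 was higher with DMSO and lower with PMA. The part of the fibroblast and epithelial markers in the Nqo1 values was not tested.

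**Figure D2:**
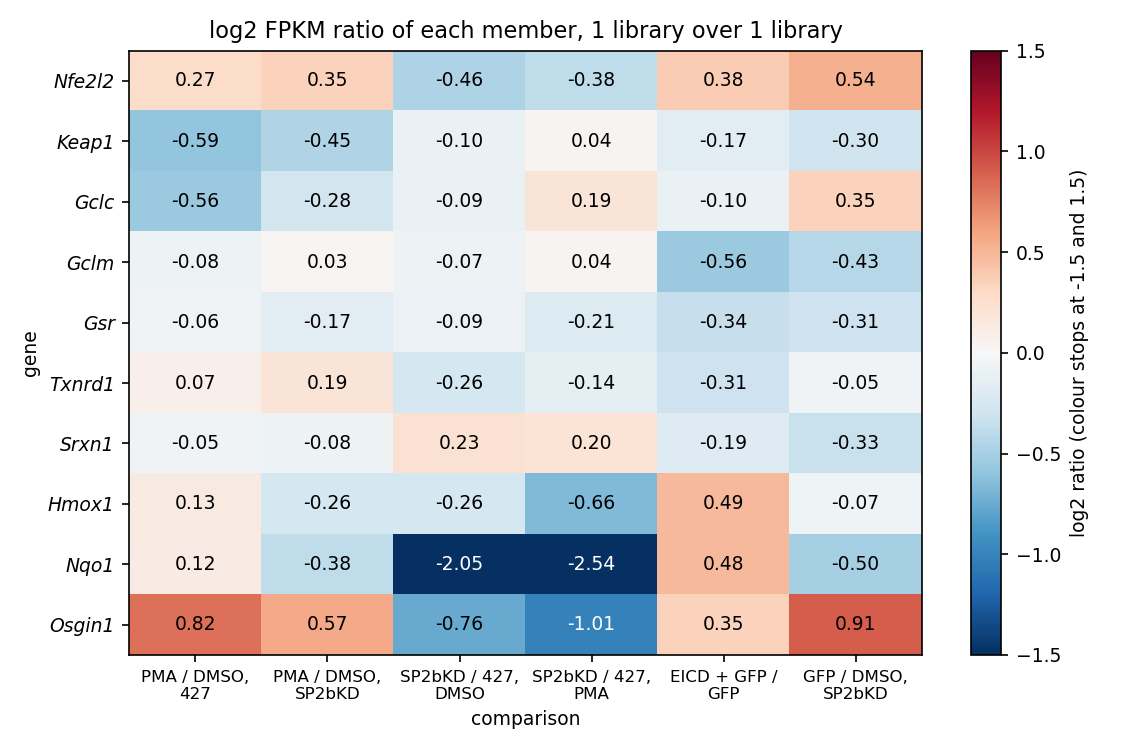
Log2 ratio of FPKM for each of the 10 genes (rows) in the 6 comparisons (columns), each of 1 library over 1 library, in red where the first is higher and blue where it is lower. Nqo1 reaches -2.05 and -2.54 in the SP2bKD over 427 columns, and Osgin1 has the highest value of the column in both PMA columns, 0.82 and 0.57.

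With DMSO, 1 of the 10 genes, Nqo1, passed 2-fold between SP2bKD and 427 libraries, beside 7.05% of the loci tested, and 2 passed 1.5-fold, beside 16.2%. With PMA, 2 passed 2-fold (Nqo1 and Osgin1), beside 5.83%, and 3 passed 1.5-fold, beside 13.8%. As deposited, the direction was lower in SP2bKD for 9 of 10 genes with DMSO and for 6 of 10 with PMA. When libraries were scaled to the FPKM sum without its 10 largest loci, the DMSO median of all loci moved up by 0.15. Keap1, Gclm, Gclc and Gsr were then on the higher side with DMSO, at log2 ratios of 0.043, 0.073, 0.051 and 0.053. Among all loci tested, 56.0% with DMSO and 53.2% with PMA were higher in SP2bKD. Their median log2 ratio was -0.18 with DMSO and -0.17 with PMA, and over all loci it was 0.048 and 0.022. Scaling each library to the same FPKM sum, which 10 loci fill to between 85.6% and 94.2%, moved the median of all loci up by 0.96 with DMSO and by 1.24 with PMA and turned most of the genes to higher, while Nqo1 stayed lower at -1.02 and -1.21.

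Osgin1 was at 7.90 FPKM in SP2bKD and 13.4 FPKM in 427 cells with DMSO, a log2 ratio of -0.76, and at -1.01 with PMA, which was 0.24 under scaling to the same sum. Hmox1 had log2 ratios of -0.26 with DMSO and -0.66 with PMA, and Nfe2l2 had -0.46 and -0.38. Neither Osgin1 nor Nfe2l2 was kept at this level in the transfected SP2bKD-10 libraries. Osgin1 had 14.9 FPKM with GFP and 18.9 FPKM with EICD, both above 427 cells with DMSO, and Nfe2l2 had 26.1 and 33.9 FPKM. Srxn1 was the member on the higher side with both treatments, at 0.23 and 0.20 on the log2 scale.

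In the library with EICD, Gclm, Gsr, Txnrd1, Srxn1, Keap1 and Gclc were on the lower side of the GFP library and Hmox1, Nfe2l2 and Osgin1 on the higher side, all within 1.5-fold. None of the 9 genes tested passed 2-fold, beside 4.76% of loci, or 1.5-fold, beside 14%. With EICD 6 of them were lower and 3 higher than with GFP alone, while 58.1% of all loci were higher. The median log2 ratio of the 9 was -0.17, beside 0.066 for all loci. The summed epithelial markers were 4390 FPKM with GFP and 2956 FPKM with EICD, and most of both sums was Krt14, at 3820 and 2456 FPKM. Krt8, Krt18, Epcam and Foxn1 were lower with EICD too, while Trp63 and Cdh1 were higher. The part of these markers in the values of the 9 genes was not tested.

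Gclm, on chromosome 3 from 122245557 to 122270732, was furthest from its GFP level. It had 31.5 FPKM with GFP and 21.4 FPKM with GFP plus EICD, the lowest of all 6 libraries, while the 4 untransfected libraries held 42.2 to 44.7 FPKM. The log2 ratio was -0.56, with a counting interval from -0.63 to -0.49, and 3.58% of loci had a ratio as low or lower. Gsr was at 92.3 and 72.7 FPKM (-0.34) and Txnrd1 at 83.8 and 67.6 FPKM (-0.31), and for each of them, too, the EICD library was the lowest of the 6. Srxn1 had 18.3 and 16.0 FPKM (-0.19), Gclc 29.1 and 27.3 FPKM (-0.10), and Keap1 23.4 and 20.8 FPKM (-0.17). When libraries were scaled to the FPKM sum without its 10 largest loci, which moved the median of all loci up by 0.28, Srxn1, Gclc and Keap1 turned to the higher side, at 0.086, 0.18 and 0.11, and Gclm was -0.28, Gsr -0.064 and Txnrd1 -0.028.

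Hmox1 had 24.6 FPKM with GFP and 34.6 FPKM with GFP plus EICD. Its log2 ratio was 0.49, with a counting interval from 0.37 to 0.61. The EICD level was its highest of the 6 libraries as deposited, by little, since 427 cells with PMA had 34.0 FPKM. For Nfe2l2 the levels were 26.1 and 33.9 FPKM, again with the EICD library as the highest of the 6, at a log2 ratio of 0.38. Osgin1 had 14.9 and 18.9 FPKM, a log2 ratio of 0.35. All these genes kept this side under every scaling tried. Among all loci, 14.4% had a ratio as high as that of Hmox1 or higher, so it was not outside the common range. Each side is 1 library, so the presence of EICD and chance variation of the transfection cannot be told apart.

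**Figure D3:**
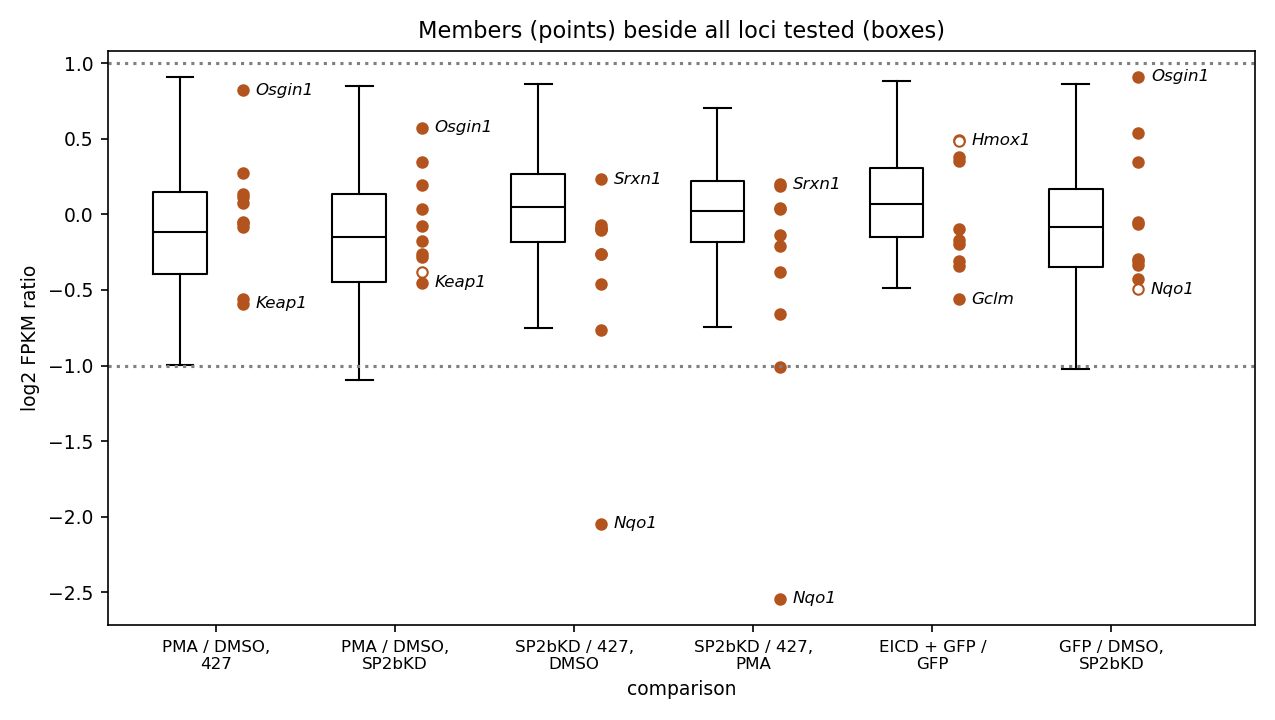
Log2 ratios of the members (points, open where under 1 FPKM in both libraries) beside all loci tested (boxes from the first to the last quartile with the median, whiskers from percentile 5 to percentile 95) in the 6 comparisons, with dotted lines at a 2-fold difference. Members past the dotted lines are Nqo1 in both SP2bKD over 427 comparisons and Osgin1 in the one with PMA, at -1.01.

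The GFP library was set beside SP2bKD cells with DMSO, which differ from it in transfection, sorting, serum and DMSO, and these cannot be told apart. None of the 9 genes passed 2-fold, beside 9.15% of loci, and 1 passed 1.5-fold, beside 21.8%. That gene was Osgin1, with 7.90 FPKM before and 14.9 FPKM in the GFP library, a log2 ratio of 0.91. Nfe2l2 was higher at 0.54 and Gclc at 0.35 on the log2 scale. Gclm had -0.43, Srxn1 -0.33, Gsr -0.31 and Keap1 -0.30. As deposited, Gclm, Gsr, Srxn1 and Keap1 were thus lower in GFP than in DMSO cells and lower again with EICD. The same order held for Txnrd1, whose GFP against DMSO value was -0.048, and 0.033 when scaled by the median ratio. Scaled to the sum without the 10 largest loci, Srxn1 and Keap1 were instead higher with EICD, at 0.086 and 0.11. Of all loci tested, 40.7% were higher in GFP than in DMSO cells. Their median log2 ratio was -0.082, and that of the 9 genes was -0.067. This comparison shares its GFP library with the EICD comparison.

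A wider list of 56 genes around NRF2 was read for context, 54 of which have a row. With PMA in 427 cells 1 of the 50 tested was over 2-fold higher and 3 were over 2-fold lower, beside 9.44% of all loci called. With PMA in SP2bKD cells 1 of 47 was higher and 4 were lower, beside 10.2%, so that both counts were near the background. With EICD 6 of 49 were higher and 0 lower, beside 4.76%, and 1 of these 6, Mgst1, was tested through its EICD level alone. The small MAF gene Maff, a partner of NRF2, had 6.81 and 30.3 FPKM with DMSO and PMA in 427 cells and 5.50 and 22.0 FPKM in SP2bKD cells, log2 ratios of 2.15 and 2.00. Txnip, which encodes an inhibitor of thioredoxin, was lower with PMA in both lines, at log2 ratios of -2.45 and -1.80. Lower too were Slc40a1, the iron exporter ferroportin, at -2.54 and -1.77, and Idh1, a cytosolic source of NADPH, at -1.23 and -1.19. Ftl1, the ferritin light chain, had 160 and 91.2 FPKM with DMSO and PMA in 427 cells, a log2 ratio of -0.81, and 310 and 77.8 FPKM in SP2bKD cells, a log2 ratio of -1.99. Its line difference of -1.18 was the only one of the 50 tested in the list past 2-fold, beside 4.6% of all loci, and Ftl1 has many near-identical pseudogenes that can share its fragments. All 6 NADPH genes were on the lower side with PMA in both lines, except that 2 of them turned in 427 cells when scaled by the median ratio. Most loci were on that side too, with 37.6% of all loci higher with PMA in 427 cells and 35.5% in SP2bKD cells.

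With EICD the 6 genes of the list past 2-fold were Slc7a11, Txnip, Mgst1, Slc40a1, Sesn2 and Nfe2l1. Slc7a11, the cystine carrier that feeds glutathione synthesis, had 3.69 FPKM with GFP and 19.3 FPKM with GFP plus EICD, a log2 ratio of 2.38 and its highest level of the 6 libraries. The glutathione ligase genes Gclc and Gclm, which use that cysteine, were at -0.10 and -0.56 in the same comparison. Nfe2l1, the relative of NRF2 that controls proteasome genes, had 105 and 241 FPKM, a log2 ratio of 1.20. Sesn2, an antioxidant sestrin, was at 1.36, Txnip at 1.74, Slc40a1 at 1.36 and the membrane glutathione transferase Mgst1 at 1.38, from 0.548 to 1.44 FPKM. As deposited, 58.1% of all loci were on the higher side with EICD, and the scalings moved their median log2 ratio by -0.18 to 0.28. By group, 8 of 9 regulators of NRF2 were on the higher side, with 5 to 8 over the scalings tried. For glutathione synthesis and use it was 7 of 13, with 4 to 10 over the scalings, and for haem and iron handling 4 of 7, with 3 to 7. For thioredoxin and peroxiredoxin it was 3 of 7, with 2 to 3, and for detoxifying enzymes 2 of 7, with 1 to 3. None of the 6 NADPH genes was on the higher side, with a median log2 ratio of -0.33, and 2 were under scaling to the sum without the 10 largest loci.

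**Figure D4:**
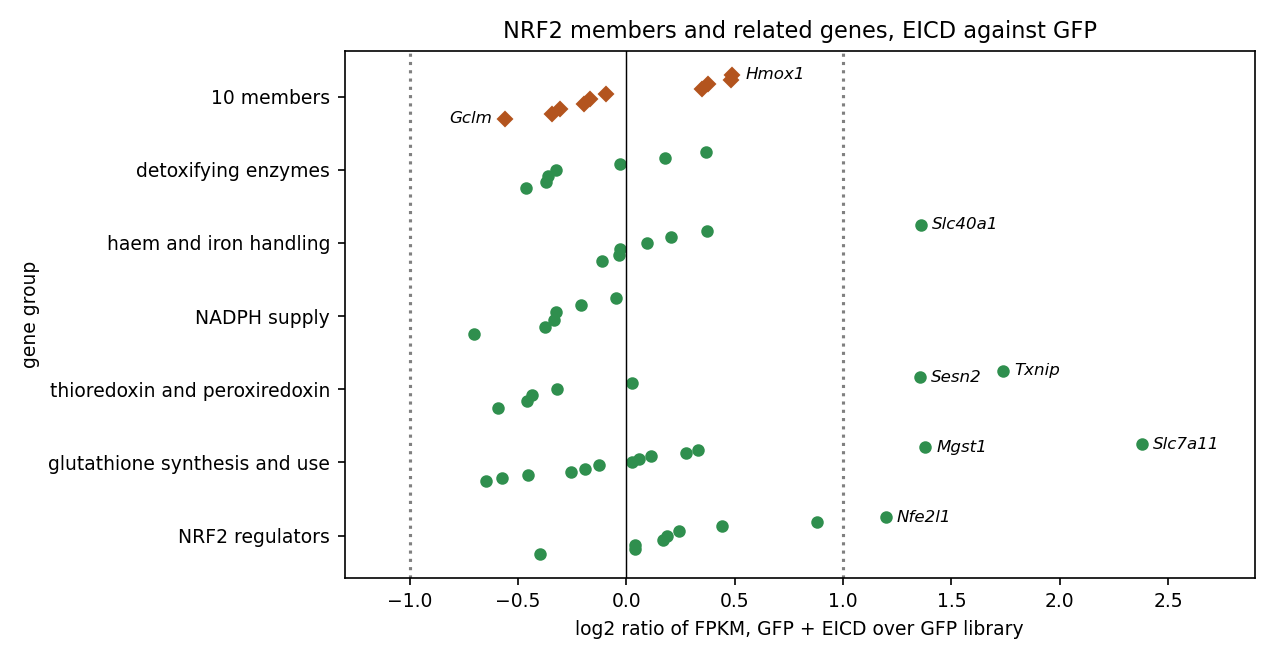
Log2 ratio of FPKM, GFP plus EICD over GFP, for the 10 members (diamonds) and for the genes of 6 related groups with 1 FPKM or more in either library (circles), with dotted lines at a 2-fold difference. The 6 named circles lie between 1.20 and 2.38, whereas the diamonds run from -0.56 for Gclm to 0.49 for Hmox1.

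Between the lines 3 of the 50 genes tested were over 2-fold lower in SP2bKD with DMSO and 0 over 2-fold higher, near the 7.05% of all loci called. They were Aldh3a1, an aldehyde dehydrogenase, at 1.81 FPKM in 427 and 0.317 FPKM in SP2bKD cells (-2.48), Gsta1, a glutathione transferase with close paralogs, at 1.14 and 0.482 FPKM (-1.22), and Mgst1, at 1.17 and 0.553 FPKM (-1.07). All 3 were under 1 FPKM in SP2bKD and were tested through their 427 level alone. With PMA 1 of 49 was over 2-fold higher and 2 were lower, beside 5.83%. The Aldh3a1 log2 ratio was then -3.35 and that of Gsta1 -1.33, both again tested through 427 alone, while Txnip was 1.60. Aldh3a1 had 0.152 FPKM with PMA and 0.396 and 0.281 FPKM in the transfected libraries. Gsta1 had 2.37 and 2.41 FPKM there, above its 427 levels. In the GFP library against DMSO cells, 2 of 48 genes were over 2-fold higher, Gsta1 at 2.27 and the epoxide hydrolase Ephx1 at 1.35, and 2 were lower, Ftl1 at -1.93 and Slc40a1 at -1.72, near the 9.15% of all loci called. Gsta1 was tested in this comparison through its GFP level alone.

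Patterns over the 6 libraries were compared by the distance between log2 values of FPKM plus 1, centred on each gene's mean, over 8096 other loci with a symbol and 10 FPKM or more in a library. Nearest to Hmox1 were Plekhm1 (distance 0.12), Hip1r (0.15) and Fam135a (0.19). Nearest to Nfe2l2 were Pwwp2b (0.16), Klf13 (0.17) and Nab1 (0.21). No other member was among them, and the 6 points share the depth and scaling of the libraries.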

How the data were processed

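Paired-end reads of 6 libraries were aligned by the authors with Tophat (v2.1.1), and the deposited FPKM values came from Cufflinks and Cuffdiff (v2.1.1) on GRCm38, 1 value per locus. The processing notes also name STAR (2.4.0b). FPKM depends on the fragment total and the assembled gene models. From these values, log2 ratios with 0.01 added were taken in pandas 2.3.3 and NumPy 2.4.6 under Python 3.11.15. Intervals used SciPy 1.17.1, and matplotlib 3.10.9 drew the plots. A locus was called at 2-fold if either library reached 1 FPKM. There was no test, since each condition has 1 library. Fragments, known only as estimates, were derived from the lowest FPKM of single-transcript genes of over 2500 bases and the longest transcript. Intervals cover counting error only. The estimate of library fragments was tried on simulated counts of known depth. That simulation used the same length formula as the estimate, so it does not test the intervals. All 10 genes were named, and from a wider list the 12 largest past 2-fold in any comparison. Alternatives changed the amount added, the scaling, the fold called and the minimum FPKM. Mafg and Ugt1a6a had no row. The members and lists were chosen with earlier results of these data known. Gene positions are those of the files, and GENCODE vM21 (GRCm38) gave exons and lengths.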

Additional observations from a re-analysis of the deposited data

Results flagged for a closer look

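For 3 genes the PMA library lay above the DMSO library in 1 line and below it in the other, and these differences were not tested. Hmox1 had log2 ratios of 0.13 in 427 cells and -0.26 in SP2bKD cells, a difference of -0.40, and both lines were on the lower side when scaled to the same sum. Nqo1 had 0.12 and -0.38, a difference of -0.50, with counting intervals from -0.25 to 0.50 and from -1.26 to 0.54 that both include 0. Gclm had -0.08 and 0.03, a difference of 0.11, and its value in 427 cells was 0.016 when scaled by the median ratio, which puts both lines on the higher side. A second locus named Txnrd1, on the opposite strand and newly assembled, was not used in the comparisons and had up to 3.28 FPKM, in the GFP library.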

How the results depend on the processing

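No paired analysis was possible because each condition has 1 library. For the 10 genes, 306 of 427 values under alternatives stayed within the counting interval of the reported log2 ratio, 120 moved beyond it, and 1 changed sign from past 2-fold, the Osgin1 ratio of SP2bKD to 427 cells with PMA, which was 0.24 when libraries were scaled to the same FPKM sum. Of the 427 values, 40 had the other sign, and these fell on 33 of the 70 reported log2 ratios. The numbers of genes past 2-fold changed as follows. Between SP2bKD and 427 cells with DMSO the number of 1 became 2 when scaled to a sum of 1000000. At that sum 52.2% of all loci were called. The number was 2 with 1.5-fold called (16.2% of loci), and 0 at a minimum of 10 FPKM, which removes Nqo1. With PMA the number of 2 became 7 when scaled to that sum, where 79.9% of loci were called. It was 3 with 1.5-fold called (13.8% of loci), 1 with 1 FPKM added (3.09%), and 1 at a minimum of 10 FPKM. With 1.5-fold called, the number was 2 for PMA in 427 cells (23.6% of loci) and 1 for GFP against DMSO cells (21.8%). Scaling by the median ratio moved the median of all loci by 0.12 at most. The scaling to a sum without the 10 largest loci was chosen after seeing the data, and it changed none of these numbers. Differences at the level of Nqo1 are limited by its few fragments. The cause of these changes was not tested.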
